A study of Homo sapiens with 8 samples.

Results

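The genes described here are the 4 receptors of the epidermal growth factor (EGF) family, EGFR, ERBB2, ERBB3 and ERBB4, and 2 receptors of the insulin family, IGF1R and INSR. They are 6 of the 19821 protein-coding genes analysed, which lie on the autosomes and X. They were chosen by family, with earlier results on the same lists known, so their H3K36me2 coverage and KDM2A peaks are given as descriptions. The cells were neural progenitors that had been differentiated from H9, a human embryonic stem cell line in wide use, and per the labels the stem cells had been infected with lentivirus and selected with puromycin. The groups were cells with the hairpin sh1 against the histone demethylase KDM2A, cells with the hairpin sh4 against KDM2A, and NC, the control cells. Chromatin immunoprecipitation (ChIP) sequencing measured dimethylation of lysine 36 on histone H3 (H3K36me2) in sh1, sh4 and NC cells, and KDM2A in NC cells alone. Every group was 1 library, so no value has a spread between replicates and no difference between groups could be tested. The level of KDM2A left in sh1 and sh4 cells is not measured by peak lists, the cell type is taken from the labels since these lists hold no expression, and whether the lines were clones or pools is not given in the sources used here.

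All of these genes encode receptor tyrosine kinases, which sit in the cell membrane, bind a growth factor outside the cell and phosphorylate docking proteins inside it, leading to MAPK and PI3 kinase signalling. EGFR binds EGF and related ligands, ERBB3 and ERBB4 bind neuregulins, and ERBB2 has no known ligand of its own and acts as their partner. IGF1R binds insulin-like growth factors and INSR binds insulin, and both act on neural progenitor growth and survival. H3K36me2 is a mark of gene bodies and of the space between genes, written by the NSD enzymes and removed by KDM2A. KDM2A reaches DNA through a zinc finger that binds CpG dinucleotides without methylation, which cluster at gene starts.

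The H3K36me2 lists held 19501 regions in sh1, 21493 in sh4 and 19691 in NC. The median region was 4200 bp wide with 151 immunoprecipitate (IP) and 89 input reads in sh1, 4400 bp with 156 and 92 reads in sh4, and 4400 bp with 162 and 99 reads in NC. The deposited fold enrichment, the authors' ratio of IP to input for each region, had a median of 1.65 in sh1, 1.65 in sh4 and 1.59 in NC. For KDM2A there were 504724 peaks, whose median fold was 2.33, and 15820 of them (3.13%) had a deposited false discovery rate (FDR) under 0.05. Most KDM2A peaks are therefore weak by the authors' own statistic. Intervals given with folds and counts are 95% intervals and cover counting error only. All positions are in GRCh38, counted from 1, and the annotation used gives both ends of each gene without exons, so no region is called exonic or intronic.

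The starts of these genes are shown first because KDM2A binds CpG-rich DNA and 3 of the 5 receptor genes in the RefSeq promoter table had a KDM2A peak at a start. Each sequence runs 5′ to 3′ on the gene's own strand, from 250 bases before to 50 bases after the annotated start, as RefSeq gives it for GRCh38.p14, with every CpG in capitals. EGFR lies at chr7:55018767-55019066 on the plus strand, ERBB4 at chr2:212538753-212539052 on the minus strand, INSR at chr19:7294365-7294664 on the minus strand and IGF1R at chr15:98648289-98648588 on the plus strand. The EGFR, ERBB4 and INSR windows each overlapped a KDM2A peak, and IGF1R is shown as the start richest in CpG, with no peak.
EGFR: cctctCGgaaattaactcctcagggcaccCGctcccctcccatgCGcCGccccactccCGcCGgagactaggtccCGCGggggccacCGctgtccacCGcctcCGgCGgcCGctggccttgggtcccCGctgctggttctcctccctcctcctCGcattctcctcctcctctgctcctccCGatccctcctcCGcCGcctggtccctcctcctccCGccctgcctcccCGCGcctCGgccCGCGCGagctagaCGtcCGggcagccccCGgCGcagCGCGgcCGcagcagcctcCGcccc
ERBB4: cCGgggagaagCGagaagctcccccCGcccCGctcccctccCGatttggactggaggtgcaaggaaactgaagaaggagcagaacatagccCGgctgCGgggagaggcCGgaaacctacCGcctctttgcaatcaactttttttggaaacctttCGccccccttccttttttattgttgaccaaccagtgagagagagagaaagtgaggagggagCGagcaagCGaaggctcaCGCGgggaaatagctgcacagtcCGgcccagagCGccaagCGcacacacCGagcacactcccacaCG
INSR: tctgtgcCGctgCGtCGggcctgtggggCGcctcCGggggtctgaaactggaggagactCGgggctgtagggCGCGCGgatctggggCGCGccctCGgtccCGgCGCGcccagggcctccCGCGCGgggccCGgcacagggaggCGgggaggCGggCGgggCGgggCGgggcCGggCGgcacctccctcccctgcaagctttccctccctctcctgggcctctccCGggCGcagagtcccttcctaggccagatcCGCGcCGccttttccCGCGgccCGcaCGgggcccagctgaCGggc
IGF1R: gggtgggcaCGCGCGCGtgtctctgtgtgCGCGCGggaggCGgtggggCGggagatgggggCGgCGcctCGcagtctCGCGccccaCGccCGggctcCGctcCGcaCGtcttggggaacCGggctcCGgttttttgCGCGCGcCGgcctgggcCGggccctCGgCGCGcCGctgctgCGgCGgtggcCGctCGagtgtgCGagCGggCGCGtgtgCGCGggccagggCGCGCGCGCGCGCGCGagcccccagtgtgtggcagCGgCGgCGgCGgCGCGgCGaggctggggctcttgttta

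The motif counted in these windows was CG, which reads the same on both strands, and 98.1% of the 22156 promoters of protein-coding genes held at least 1, with a median of 21. The IGF1R window held 55 CpGs, more than 99.6% of those promoters, and its GC content was 79.7%. INSR had 36 CpGs and 78.3% GC, EGFR 33 and 75.3%, ERBB2 24 and 60.7%, and ERBB4 19 and 59%. EGFR has a second annotated start at position 55109839, 90.8 kb into the gene, whose window held 1 CpG and no KDM2A peak within 2 kb. Among all promoters the share overlapping a KDM2A peak was 26% with 30 or more CpGs and 14.3% with at most 4, so the richest class still lacked a peak in most cases. IGF1R belonged to that majority, while ERBB4, below the median in CpG, carried a peak. Per gene, 20.8% of those with a known strand had a peak overlapping the promoter window.

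KDM2A peaks lay within 2 kb of an end of all 6 receptor genes, as they did for 84.0% of all protein-coding genes. Of the 5 receptor genes with a known strand 4 had a peak at the 5′ end, against 66.1% of such genes in all, and 4 had a peak at the 3′ end, against 58.9%. INSR had 5 peaks around its 5′ end, the most of the 6 genes there, and none at its 3′ end. The INSR peak over the start, chr19:7293479-7294611, was 1133 bp wide, the 67th widest of the 504724 in the list, with a fold of 2.08 and an FDR of 0.572. A second INSR peak at chr19:7292182-7292616, about 2 kb into the gene, had a fold of 3.34 and an FDR of 0.0644. EGFR had 2 peaks at its 5′ end and 3 at its 3′ end. The EGFR peak at chr7:55018799-55019061 spans the start shown above with a fold of 2.06 and an FDR of 0.63, and that at chr7:55017824-55018210 lay about 1 kb before it with a fold of 3.1 and an FDR of 0.127. At ERBB4 the single peak at the 5′ end, chr2:212538830-212538980, lay just before the start with a fold of 2.48 and an FDR of 0.407, and 1 further peak stood at the 3′ end.

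The other starts had less. ERBB2 had 1 peak at its 5′ end, chr17:39686845-39687029, with a fold of 1.87 and an FDR of 0.812, and 2 at its 3′ end. The ERBB2 peak at the 5′ end lies inside the neighbouring gene PGAP3, whose annotated end is 37 bp from the start of ERBB2. Both ERBB2 peaks at the 3′ end lie past its annotated end. The peak at chr17:39729089-39729323 lies inside the gene MIEN1, which overlaps the end of ERBB2, and that at chr17:39730146-39730569 overlaps MIEN1. IGF1R had none at its 5′ end and 1 at its 3′ end. ERBB3 has no entry in the promoter table, and its 3 peaks lay at the end with the lower coordinate, with folds of 2.38, 2.59 and 2.62. None of the 19 end peaks of the 6 genes had an FDR under 0.05, where 5.55% of all protein-coding genes had such a peak at either end, 3.43% of those with a known strand at the 5′ end and 2.40% at the 3′ end.

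H3K36me2 regions lay in 3 of the 6 genes, EGFR, ERBB4 and IGF1R, and the same 3 genes held them in sh1, sh4 and NC. Among all protein-coding genes 16.2% held a region in sh1, 15.4% in sh4 and 20.0% in NC, and among the 3350 genes of at least 100 kb the shares were 59.1% in sh1, 57.5% in sh4 and 66.2% in NC. A region in all 3 libraries was held by 7.52% of all genes and 38.5% of those of at least 100 kb. ERBB2, ERBB3 and INSR held none in any library, as did 70.6% of all protein-coding genes and 16.9% of those of at least 100 kb. ERBB2 (40.6 kb) and ERBB3 (23.4 kb) are short, while INSR (182 kb) is nearly as long as EGFR (193 kb).

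Coverage, the percent of the annotated gene inside regions, was lower in both hairpin libraries than in NC in all 3 marked genes when every deposited region was used. EGFR was covered over 7.06% of its length in sh1 cells and 1.87% in sh4 cells, against 13.1% in NC cells. IGF1R was covered over 4.56% in sh1 cells and 1.2% in sh4 cells, against 13.2% in NC cells. ERBB4, the longest at 1160 kb, was covered over 3.87% in sh1 cells and 6.17% in sh4 cells, against 6.71% in NC cells. Thus EGFR and IGF1R stood high in NC, above 93.8% and 94% of genes of at least 100 kb, and ERBB4 above 77.2% of them.

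The size of the difference varied between genes and hairpins. Coverage of IGF1R in sh1 was 0.344 of that in NC and in sh4 0.0909 of it. For EGFR the ratio to NC was 0.54 in sh1 and 0.143 in sh4, and for ERBB4 it was 0.577 in sh1 and 0.921 in sh4. Both hairpins are set against the same NC library. In sh1, 1 of the 3 marked genes was at most 1/2 of NC, against 60.5% of all genes covered in NC and 44.6% of the long ones, and in sh4 it was 2 of the 3, against 61.7% and 45.8%. IGF1R alone was at most 1/2 of NC in both hairpins, 1 of the 3 marked genes, where 47.3% of all genes covered in NC and 29.8% of those of at least 100 kb were as low. In sh1 that call depends on 1 broad NC region of low fold, described below. Coverage below NC in both hairpins by any amount held for 3 of 3, and for 62.7% of all genes covered in NC and 48.5% of the long ones. None of the 6 genes was at least 2 times higher in both hairpins, against 2.89% of all genes and 10.3% of the long ones. Summed over the 6 genes, regions took 3.81% of the length in sh1 and 4.13% in sh4, against 7.56% in NC, while over all genes of at least 100 kb they took 3.94% in sh1 and 4.53% in sh4, against 4.26% in NC. The NC sum includes that broad IGF1R region, of 30.8 kb with a fold of 1.18. It also includes 25.2 kb of EGFR, all in regions under the NC median fold. With a limit on fold, EGFR and ERBB4 were higher in both hairpins than in NC, as given below.

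**Figure D1:**
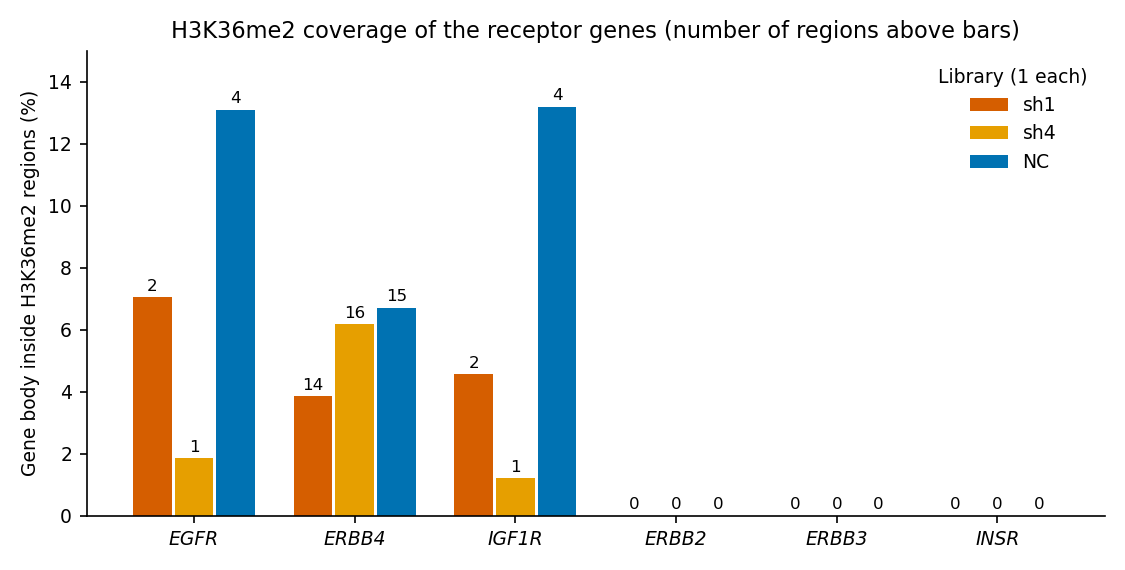
Percent of each receptor gene inside H3K36me2 regions (vertical axis) in sh1, sh4 and NC cells, 1 library each, with the number of regions above each bar. EGFR and IGF1R stand at 13.1% and 13.2% in NC with lower bars in both hairpins, ERBB4 differs less, and ERBB2, ERBB3 and INSR hold no region.

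The direction of these differences in EGFR and ERBB4 depended on which regions were kept. With only the regions whose fold exceeded the NC median of 1.59, EGFR was covered over 1.14% in sh1 and 1.87% in sh4, against 0% in NC, and ERBB4 over 3.44% in sh1 and 5.33% in sh4, against 3.23% in NC. The median fold was 1.65 in sh1 and in sh4, so this limit kept a larger share of the hairpin lists than of the NC list. IGF1R stayed lower in both hairpins with 0.886% in sh1 and 1.2% in sh4, against 2.34% in NC. With only the regions whose FDR was below the NC median, EGFR stayed lower in both hairpins, with 7.06% in sh1 and 1.87% in sh4, against 8.1% in NC. Under that limit IGF1R had 0% in sh1 and 1.2% in sh4, against 1.33% in NC, and ERBB4 had 2.6% in sh1 and 5.33% in sh4, against 4.11% in NC. The bars of the coverage plot therefore count length inside regions of any strength. In EGFR the fold limit removed every NC region and also the wider sh1 region, of 11.4 kb with a fold of 1.39.

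**Figure D2:**
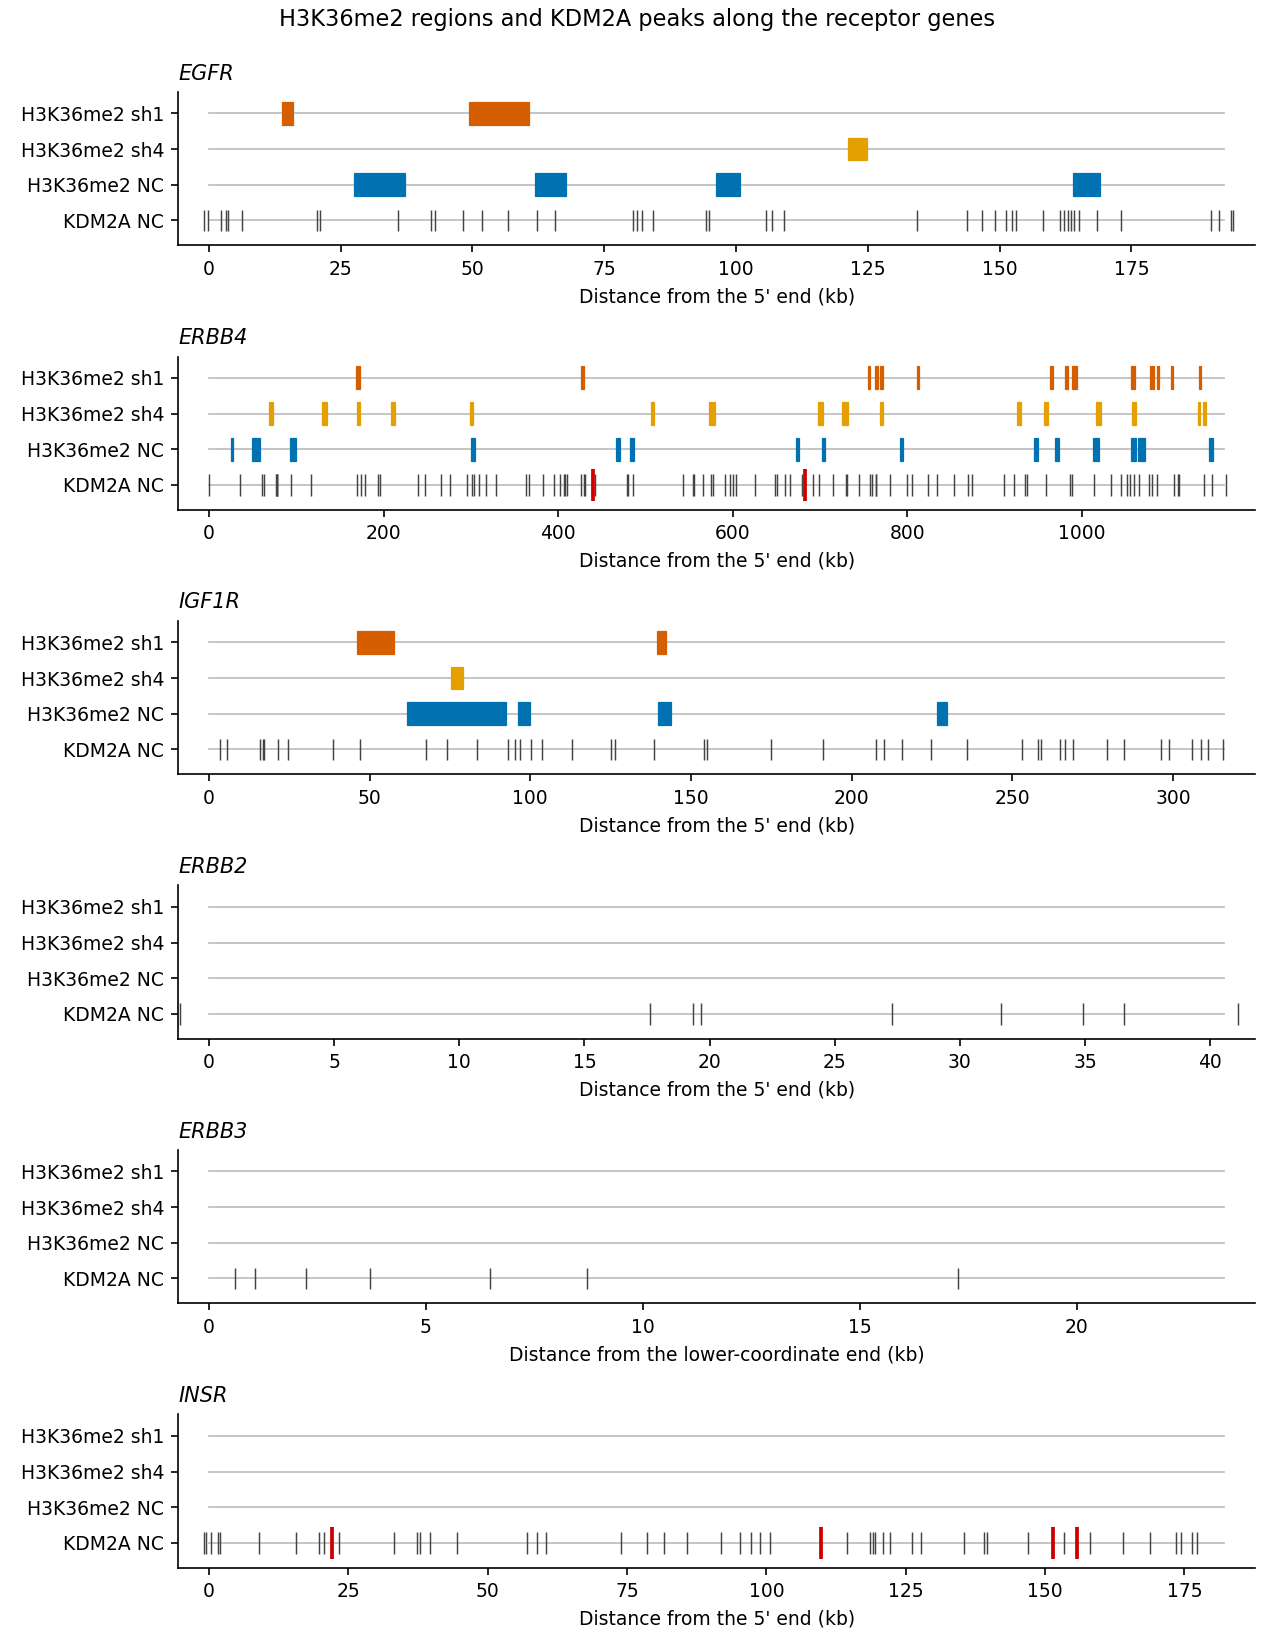
Position of H3K36me2 regions (boxes; sh1, sh4 and NC cells) and of KDM2A peaks in NC cells (ticks; red and taller where the FDR was under 0.05) against the distance in kb from the 5′ end of each receptor gene, or from the end with the lower coordinate for ERBB3. The regions of EGFR lie in different places in the 3 libraries, those of ERBB4 run along the whole gene, and the red ticks fall in ERBB4 and INSR.

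EGFR, the receptor of EGF and transforming growth factor alpha (gene ID 1956, chr7:55019017-55211628), held 2 regions in sh1, 1 in sh4 and 4 in NC, and no base lay inside regions of more than 1 library. The counts have intervals of 0.242 to 7.22 in sh1, 0.0253 to 5.57 in sh4 and 1.09 to 10.2 in NC, which overlap. In sh1 cells a narrow region at chr7:55032801-55035000, 13.8 to 16 kb from the start, held 92 IP and 39 input reads with a fold of 2.33 (1.59 to 3.49). A wide sh1 region at chr7:55068401-55079800, 49.4 to 60.8 kb from the start, had a fold of 1.39 (1.2 to 1.61). The only region in sh4 cells, chr7:55140201-55143800, lay past the middle of the gene at 121.2 to 124.8 kb with a fold of 2.21 (1.65 to 2.99). Those narrow hairpin regions were among the stronger ones of their lists: 95.6% of sh1 regions and 92.5% of sh4 regions had a lower fold.

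The 4 NC regions of EGFR had lower folds than the narrow hairpin regions and were more spread out. They lay at chr7:55046601-55056200, chr7:55080801-55086800, chr7:55115201-55119800 and chr7:55183001-55188000, which is 27.6 to 37.2, 61.8 to 67.8, 96.2 to 100.8 and 164 to 169 kb from the start. Their folds were 1.38 (1.18 to 1.62), 1.54 (1.27 to 1.89), 1.46 (1.16 to 1.84) and 1.48 (1.18 to 1.86), all under the NC median, and the wide sh1 region had 1.39. All of these NC intervals overlap that of the narrow sh1 region, and all but the first overlap that of the sh4 region. The wide sh1 region ended 1000 bp before the second of them began, which is the closest approach between libraries in this gene. The third NC region began 5.4 kb past the second annotated start of EGFR. The last NC region lay inside EGFR-AS1, an antisense long noncoding RNA gene at chr7:55179750-55188949 that held 7 KDM2A peaks with folds of 1.66 to 2.49, 3 of them in the region. Outside the gene, sh1 and sh4 had 6.6% and 12.8% of the next 100 kb downstream inside regions, where NC had none.

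Long genes with the 3 coverage values nearest to those of EGFR, by the sum of absolute differences over the 3 libraries, were LIPA, ARHGAP25 and TMCO5A. LIPA, which encodes lysosomal acid lipase, had 7.16% in sh1, 2.69% in sh4 and 13.8% in NC. ARHGAP25, which encodes a GTPase-activating protein, had 6.36% in sh1, 1.89% in sh4 and 12% in NC, and TMCO5A had 7.91% in sh1, 1.28% in sh4 and 13.7% in NC. Their summed differences from EGFR were 1.66, 1.76 and 2.1 percentage points.

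**Figure D3:**
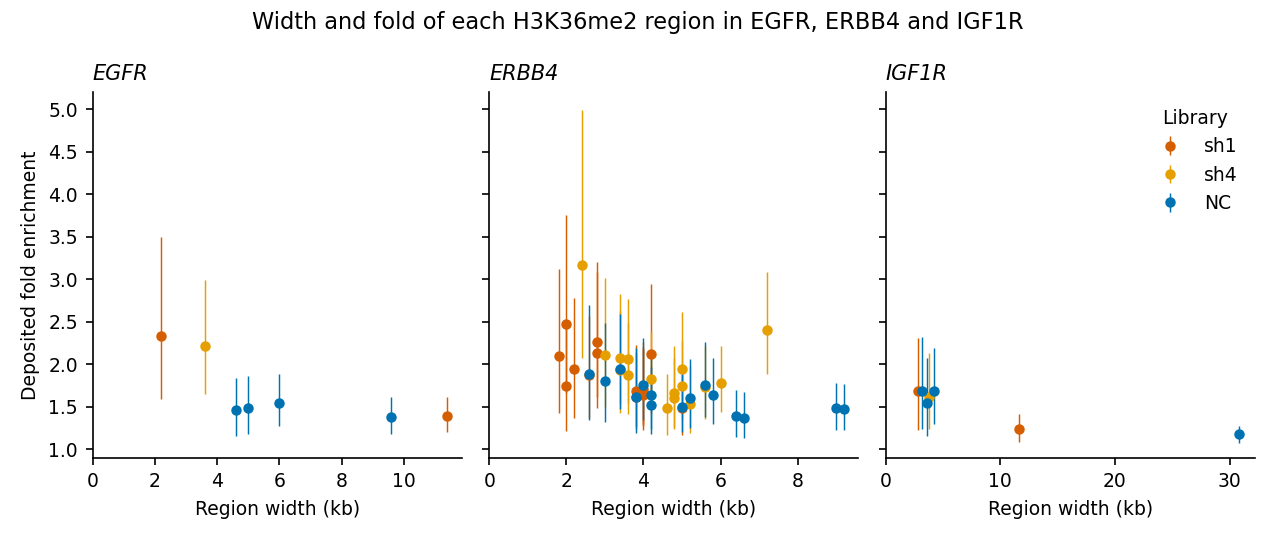
Deposited fold of each H3K36me2 region (vertical axis) against its width in kb (horizontal axis) in EGFR, ERBB4 and IGF1R for sh1, sh4 and NC cells, with bars for 95% counting intervals. The widest region, 30.8 kb in IGF1R in NC, has the lowest fold at 1.18, and the highest fold is 3.17 in a 2.4 kb sh4 region of ERBB4.

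ERBB4, the neuregulin receptor with known roles in migrating neurons and interneurons (gene ID 2066, chr2:211375717-212538802, minus strand), held 14 regions in sh1, 16 in sh4 and 15 in NC. Their number was thus nearly the same, with intervals of 7.65 to 23.5 in sh1, 9.15 to 26 in sh4 and 8.4 to 24.7 in NC, and the width of the regions differed more. The median region was 3300 bp wide in sh1 and 4700 bp in sh4, against 5000 bp in NC, so that 45 kb were covered in sh1 and 71.8 kb in sh4, against 78 kb in NC. The median fold ran the other way, 1.81 in sh1 and 1.85 in sh4, against 1.61 in NC. The plot of width and fold shows the narrow hairpin regions at the higher folds, up to 2.47 in sh1 and 3.17 in sh4, against 1.94 in NC. Every listed region had an FDR under 1e-05, a limit that a region with few reads passes only at a high fold. Width and fold are therefore not independent in these lists.

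Along ERBB4 the regions of the 3 libraries were placed differently. In sh1 cells they began at 168.4 and 426.6 kb from the 5′ end and then, after a long gap, at 754.4, 762.6, 768.8, 811.6, 963.6, 980.4 and 989 kb, and close to the 3′ end at 1056.4, 1078.2, 1086.2, 1102.2 and 1134.2 kb. In sh4 cells they began at 69.2, 130, 169.8, 208 and 299.4 kb, in the middle at 506.2, 572.8, 698, 725.6 and 769 kb, and further on at 926, 956.2, 1016.4, 1057.2, 1133.2 and 1138.6 kb. In NC cells they began at 25, 49.8, 93.2 and 300.4 kb, in the middle at 466, 482, 673, 702.2 and 791.2 kb, and further on at 945.2, 968.6, 1012.6, 1056, 1063.8 and 1145.8 kb. The sh1 regions gathered toward the 3′ end: 15.6% of their length lay 5′ of the gene's midpoint, while it was 45.1% in sh4 and 41.8% in NC. Over long genes with a known strand the share was 49.1% in sh1, 49.4% in sh4 and 47% in NC.

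**Figure D4:**
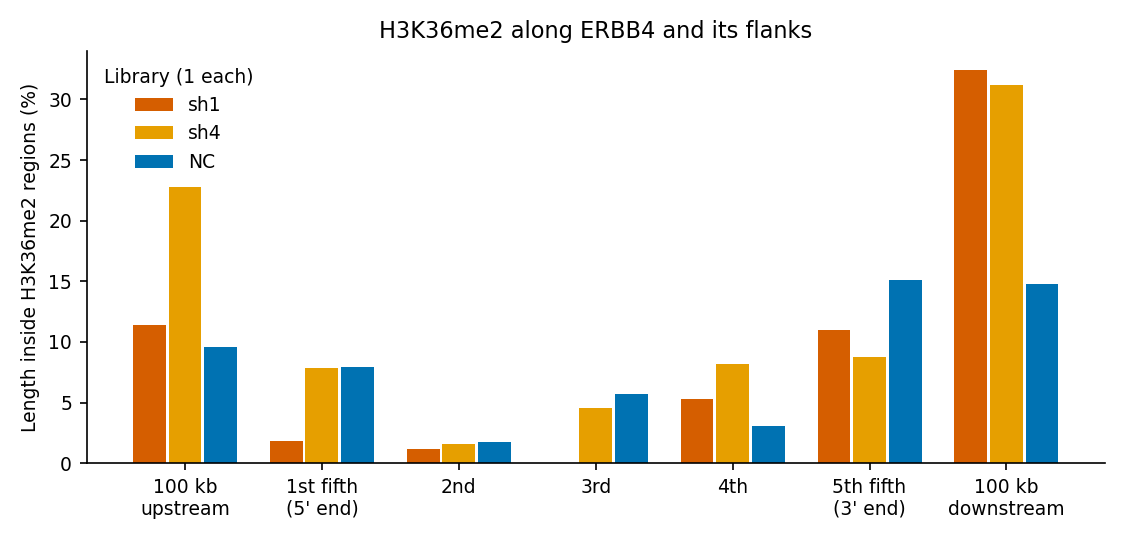
Percent of length inside H3K36me2 regions (vertical axis) in 5 equal parts of ERBB4 from the 5′ to the 3′ end and in 100 kb on each side, for sh1, sh4 and NC cells, 1 library each. The third part holds none in sh1, and downstream of the gene sh1 and sh4 reach 32.4% and 31.2% against 14.8% in NC.

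Split into 5 equal parts from the 5′ end, ERBB4 was covered in the first part over 1.81% in sh1 and 7.82% in sh4, against 7.91% in NC. The last part was covered over 11% in sh1 and 8.77% in sh4, against 15.1% in NC. In the fourth part the order turned, with 5.33% in sh1 and 8.17% in sh4, against 3.1% in NC. The 100 kb flanks on either side had more than the gene itself in each library, 11.4% upstream in sh1 and 22.8% in sh4, against 9.6% in NC, and 32.4% downstream in sh1 and 31.2% in sh4, against 14.8% in NC. The nearest protein-coding genes are CPS1 and IKZF2, both beyond these flanks. With every region used, the hairpins thus had less than NC inside the gene and more than NC on both sides of it.

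Few ERBB4 regions coincided between libraries. The only stretch of any receptor gene inside regions of sh1, sh4 and NC alike was chr2:211478401-211481600, 3.2 kb in the 3′ part of ERBB4, 1057.2 kb from the 5′ end. The regions that share it had folds of 1.64 (1.23 to 2.2) in sh1 and 1.66 (1.26 to 2.21) in sh4, against 1.64 (1.3 to 2.07) in NC. A KDM2A peak lay inside that stretch at chr2:211479181-211479331, with a fold of 2.51 and an FDR of 0.387. Besides it, sh1 and sh4 shared 3 stretches without NC, at chr2:211403201-211404600, chr2:211766201-211769800 and chr2:212366201-212369000. The strongest region of the 3 genes, chr2:211403201-211405600 in sh4 with a fold of 3.17 (2.07 to 4.99), covers the first of these, and the sh1 region there had a fold of 1.75 (1.22 to 2.51). ERBB4 length shared by sh1 and sh4 was 11 kb, 24.4% of the sh1 length and 15.3% of the sh4 length. With NC, sh1 shared 4 kb (8.89% of sh1 and 5.13% of NC) and sh4 shared 10.8 kb (15% of sh4 and 13.8% of NC).

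Over genes of at least 100 kb, sh1 shared 9.98% of its length with NC and 10.3% with sh4, and sh4 shared 7.86% of its length with NC and 9% with sh1. Most of the covered length of one library thus lay outside the regions of another, in long genes at large and over the 6 receptor genes together. These are shares of length and not of regions. Of the 14 sh1 regions in ERBB4, 4 touched an sh4 region and 1 an NC region, and of the 15 NC regions 4 touched an sh4 region. ERBB4 shared more than long genes between sh1 and sh4 and between sh4 and NC, and less between sh1 and NC. EGFR shared none. The single stretch in all 3 libraries was 7.11% of the sh1 length of ERBB4, 4.46% of sh4 and 4.1% of NC. Over long genes such stretches were 1.34%, 1.17% and 1.24%.

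ERBB2 (gene ID 2064, chr17:39688094-39728658), the partner receptor amplified in some breast cancers, held no H3K36me2 region. The nearest regions were 2160 kb away in sh1 and 2130 kb in sh4, against 378 kb in NC. Its chromosome had few regions altogether, 163 in sh1 and 144 in sh4, against 263 in NC, and of its 1157 genes 4.49% held 1 or more in sh1 and 3.72% in sh4, against 8.3% in NC. ERBB3 (gene ID 2065, chr12:56080108-56103505), a receptor with little kinase activity of its own that signals with ERBB2, held none either, and its nearest region was 59.7 kb away in sh1, 494 kb in sh4 and 338 kb in NC. On chromosome 12 a region was held by 16.8% of genes in sh1, 15.5% in sh4 and 18.2% in NC, close to the shares of all genes.

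IGF1R (gene ID 3480, chr15:98648539-98964530), the receptor for insulin-like growth factors, held 2 regions in sh1, 1 in sh4 and 4 in NC. In NC the gene had a broad region of 30.8 kb at chr15:98710001-98740800, 61.5 to 92.3 kb from the start, the 3rd widest of the 19691 in that list. It rested on 1157 IP and 967 input reads, with a fold of 1.18 (1.08 to 1.28), and 0.0152% of NC regions had a lower fold. This region made up most of the 41.8 kb covered in NC. Without it, the NC regions together were shorter than the 14.4 kb covered in sh1. The other NC regions lay at 96.3 to 99.9, 139.7 to 143.9 and 226.5 to 229.7 kb, with folds of 1.55, 1.68 and 1.69.

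In sh4 cells the only IGF1R region, chr15:98723801-98727600, was 3.8 kb wide with a fold of 1.62 (1.24 to 2.13) and lay wholly inside the broad NC region. In sh1 cells a region of 11.6 kb at chr15:98694601-98706200, with a fold of 1.24 (1.09 to 1.42), ended 3800 bp before the broad NC region began. The second sh1 region, chr15:98788001-98790800, shared 2.6 kb with the NC region at chr15:98788201-98792400, and both had a fold of 1.68. That pair was the single place in IGF1R where sh1 and NC coincided, and sh1 and sh4 shared nothing. All of the covered length of IGF1R in sh1 and sh4, and 92.3% of it in NC, lay 5′ of the gene's midpoint.

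INSR (gene ID 3643, chr19:7112265-7294414), the insulin receptor, held no H3K36me2 region in any library, although its length is near that of EGFR. The nearest region was 1580 kb away in sh1 and 2180 kb in sh4, against 2660 kb in NC. Chromosome 19 as a whole was almost empty of regions, with 6 in sh1 and 6 in sh4, against 34 in NC. Of its 1410 protein-coding genes, 0.355% held a region in sh1 and 0.142% in sh4, against 1.63% in NC, so the absence at INSR is shared by its chromosome.

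KDM2A peaks in NC cells lay in the bodies of all 6 genes, as in 89.4% of all protein-coding genes, in another order than H3K36me2. INSR had 49, or 2.69 per 10 kb (1.99 to 3.56), EGFR 41, or 2.13 (1.53 to 2.89), and IGF1R 44, or 1.39 (1.01 to 1.87). ERBB4 had 98 over its great length, or 0.843 per 10 kb (0.684 to 1.03), the lowest of the 6. ERBB3 had 7, or 2.99 (1.2 to 6.16), and ERBB2 7, or 1.73 (0.694 to 3.56). All protein-coding genes together had 1.74 per 10 kb, so that ERBB4 stood at 0.483 of that value and INSR at 1.54 times it, with counting intervals that do not reach it. These intervals do not cover the spread between genes. Of the genes of at least 100 kb, 90.9% had a lower density than INSR and 7.34% a lower density than ERBB4. Against the genes of its own chromosome, at 2.44 per 10 kb, INSR stood at 1.1. The intervals of ERBB2, ERBB3 and EGFR hold the value of all genes, as does that of IGF1R.

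**Figure D5:**
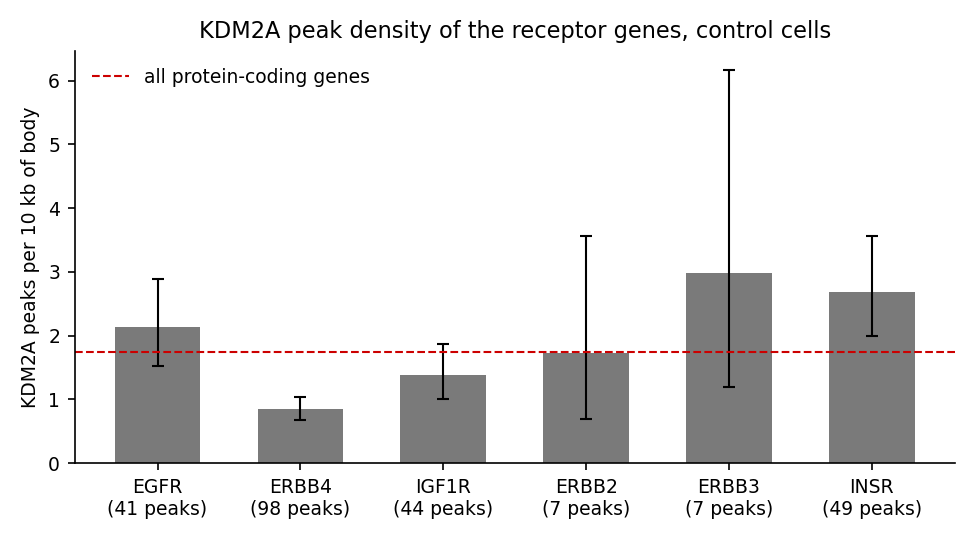
KDM2A peaks per 10 kb of gene body in NC cells (vertical axis) for the 6 receptor genes, with 95% Poisson intervals for counting error and a dashed line for all protein-coding genes at 1.74. ERBB4 at 0.843 lies below the line and INSR at 2.69 above it.

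Peaks with an FDR under 0.05 lay in the bodies of 2 of the 6 genes, ERBB4 and INSR, against 20.0% of all protein-coding genes and 55.9% of those of at least 100 kb. INSR held 4 of them. The strongest, chr19:7184455-7184863, had a fold of 4.68 and an FDR of 0.000312, above 99.8% of all KDM2A peaks by fold. The others were chr19:7272199-7272357 with a fold of 3.89 and an FDR of 0.00471, chr19:7142819-7143104 with 3.56 and 0.0371, and chr19:7138429-7138804 with 3.37 and 0.0454. ERBB4 held 2, chr2:211856234-211856659 with a fold of 3.74 and an FDR of 0.00191, and chr2:212099055-212099251 with 3.79 and 0.0214. Under this limit the density of INSR was 4.73 times that of all genes and that of ERBB4 0.37 of it. These ratios rest on only 4 and 2 peaks, and no interval was computed for them. The other 4 genes held none, and ERBB2 and ERBB3 among them are short. The IGF1R peak with the lowest FDR, 0.0547, lay at chr15:98803374-98803753 with a fold of 3.4, just outside the limit.

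KDM2A peaks lay inside the NC regions about as often as the length of those regions gives. Of the 246 body peaks 18 had their midpoint in an NC region, 7.32% (exact binomial interval 4.39 to 11.3), and NC regions took 7.56% of the length. In EGFR it was 6 of 41 peaks, 14.6%, beside 13.1% of the length, in ERBB4 8 of 98, 8.16%, beside 6.71%, and in IGF1R 4 of 44, 9.09%, beside 13.2%. Over genes of at least 100 kb, 5.04% of peaks lay in NC regions, which took 4.26% of the length. INSR, with the most KDM2A peaks per length of the 4 long receptor genes, had no H3K36me2 region. Its chromosome held only 6 regions in sh1, 6 in sh4 and 34 in NC. The KDM2A density of INSR was 1.1 times that of the genes of its chromosome. A link between the 2 measures was not tested.

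The ligands, docking proteins and inhibitors listed for these receptors, 43 genes in 6 lists, differed from NC in both directions. The lists are not complete and leave out the neuregulin gene NRG1. A region was held by 12 of them in sh1, 10 in sh4 and 14 in NC, and 21 held none in any library. Among all protein-coding genes the shares with a region were 16.2% in sh1, 15.4% in sh4 and 20.0% in NC, with 70.6% holding none, and among those of at least 100 kb they were 59.1% in sh1, 57.5% in sh4 and 66.2% in NC, with 16.9% holding none. The median length of the 43 genes was 68.5 kb. Of the 14 covered in NC, 5 were at most 1/2 of NC in both hairpins, where 47.3% of all genes covered in NC and 29.8% of the long ones were as low. Of the 43, 2 were higher in both, against 2.89% of all genes and 10.3% of the long ones. The median coverage was 0% in all 3 libraries, as over all protein-coding genes.

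Among the 10 listed EGF family ligands, without NRG1, 4 held a region in sh1, 3 in sh4 and 3 in NC. EGF itself was covered over 28.4% in sh1 and 3.37% in sh4, against 10.5% in NC. NRG3, a neuregulin that binds ERBB4, was covered over 2.86% in sh1 and 3.27% in sh4, against 1.19% in NC, higher in both. NRG4 had 12.2% in sh4 and none in sh1 or NC, and BTC, which encodes betacellulin, 11.3% in sh1 and none in sh4 or NC. Of the 3 insulin family ligands IGF1 alone was covered, over 15.8% in sh1 and in neither other library. IGF2R and INSRR, the other receptors of these ligands, and all 6 IGF-binding proteins held no region.

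Among 12 adaptors and docking proteins 5 held a region in sh1, 4 in sh4 and 5 in NC. IRS4, an insulin receptor substrate, had 24.4% in sh4 and none in sh1 or NC. PIK3R1, the regulatory subunit of PI3 kinase, had 15.4% in sh1 and none in sh4, against 2.79% in NC, and the docking protein gene GAB2 had 10.8% in sh1, none in sh4 and 8.49% in NC. PIK3CA, the catalytic subunit, had 6.52% in both sh1 and sh4 and none in NC, and IRS2 had none in either hairpin and 10.6% in NC. These last were chosen after their values were seen.

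The 10 inhibitors held regions in 2 genes in sh1, 3 in sh4 and 6 in NC, and 4 of the 6 covered in NC were lower in both hairpins, against 47.3% of all genes covered in NC and 29.8% of the long ones. LRIG1, a membrane protein that lowers the level of ERBB receptors, had none in sh1 or sh4 and 12.4% in NC. CBL, a ubiquitin ligase of EGFR, GRB10, an adaptor that restrains INSR and IGF1R, and PTPN1, a phosphatase of INSR, were named after their values were seen. They also had none in the hairpins and 5.3%, 2.85% and 6.14% in NC. CBLB, a ubiquitin ligase that acts on EGFR, held some length in all libraries, with 0.159% in sh1 and 7.54% in sh4, against 4.95% in NC. The sh1 value is a very small overlap in a gene of 214 kb, and the count of 2 genes in sh1 includes it. GRB14, an adaptor that inhibits INSR, had 6.66% in sh1 and 9.61% in sh4, against 5.27% in NC. KDM2A peaks lay within 2 kb of an end of 38 of the 43 genes, against 84.0% of all genes. A body peak with an FDR under 0.05 lay in 16 of the 43, against 20.0% of all genes and 55.9% of the long ones.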

How the data were processed

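ChIP libraries of H3K36me2 (sh1, sh4 and NC cells) and of KDM2A (NC cells), 1 per group, were analysed from the 4 deposited peak lists; the 4 inputs were not analysed on their own. Bowtie 1.1.2, SICER and MACS2 are listed in the submitters' processing notes without roles, and so are GRCh38 and hg38 as builds. Per the file headers, each deposited region has a fold (a ratio of IP to background), a p-value, an FDR and a score. Pileup in the deposited KDM2A list is a signal (fragments stacked at the peak). H3K36me2 regions lay on a 200 bp grid counted from 0 with every FDR under 1e-05, and starts and ends were moved to counting from 1. The KDM2A FDR reached 0.869, so that list is broad.

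A Poisson model links the fold and p-value of an H3K36me2 region to its IP and input reads, which were solved for, and input counts came out within 0.01 of a whole number. Library totals and the depth of the KDM2A library are unknown. Fold intervals came from the exact binomial share of IP reads, count intervals from the Poisson distribution (Python 3.11.15, SciPy 1.17.1), at 95%.

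Gene ends came from RefSeq GRCh38.p14, with genes of other sequences left out, and strand from its promoter table (5 of 6 receptor genes matched). Coverage is the percent of a gene inside regions. Lower means at most 1/2 of NC, higher at least 2 times NC or covered where NC has none. KDM2A peaks were placed by midpoint in bodies and by overlap within 2 kb of ends. The calculations were tested on simulated data. Members, the 6 lists (EGF family ligands, insulin family ligands, other receptors, IGF-binding proteins, adaptors, inhibitors) and tests were chosen with earlier results of these data known. Named list genes are those covered in all 3 libraries and the up to 3 with the largest coverage, and those said to be chosen later. Alternatives were limits on fold and FDR, wider genes, other overlaps and folds, and other windows.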

Additional observations from a re-analysis of the deposited data

Results flagged for a closer look

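The number of H3K36me2 regions in ERBB4 was 14 in sh1 and 16 in sh4, against 15 in NC, so that the hairpins lay on opposite sides of NC. The difference was not tested, with 1 library per group, and each of these counts lies inside the counting interval of the other 2.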

How the results depend on the processing

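Of 87 results recomputed under another setting, 5 reversed, 24 moved, and 58 did neither by the rules used, though some became much smaller. No cause was tested. The 58 include the coverage differences of ERBB2, ERBB3 and INSR. These genes hold no region in the body or within 10 kb, so their differences could only stay at 0. Of the 24 recomputed coverage differences in EGFR, ERBB4 and IGF1R, 17 neither reversed nor moved. A limit at the NC median fold kept a larger share of the hairpin lists than of the NC list. With regions above that limit, hairpin minus NC coverage was 1.14 (sh1) and 1.87 (sh4) percentage points in EGFR, 0.21 and 2.1 in ERBB4, all reversed, and -1.46 (sh1) and -1.14 (sh4) in IGF1R. With regions of an FDR below the NC median it was -1.04 and -6.23 in EGFR, -1.51 and, reversed, 1.22 in ERBB4, and -1.33 and -0.13 in IGF1R. For sh4 in ERBB4 it was 0 with the gene widened by 10 kb. The main values were -6.02 and -11.21 in EGFR, -2.84 and -0.53 in ERBB4, and -8.67 and -12.03 in IGF1R. Receptor genes lower in both hairpins numbered 1 at 2 times, 2 at 1.5 times and 3 at any difference. Receptor genes with a KDM2A end peak fell to 2 with the 10% of peaks of highest fold and 0 with an FDR under 0.05, and the 19 end peaks became 11 within 1 kb, 41 within 5 kb, 2 by fold and 0 by FDR. KDM2A density over that of all genes became 0 in EGFR, ERBB2, ERBB3 and IGF1R, 0.37 in ERBB4 and 4.73 in INSR by FDR, and 0 in EGFR, ERBB2 and ERBB3 and 3.04 in INSR by fold. By FDR the ratios rest on 2 peaks in ERBB4 and 4 in INSR. Long genes had background shares of 59.1%, 57.5% and 66.2% with a region in sh1, sh4 and NC, and 29.8% lower in both. Depth is known only inside H3K36me2 regions, and 1 library per group leaves the spread between cultures unknown. No paired analysis was possible because every group held 1 library.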
